A study of Mus musculus with 30 samples.

Results

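The uncoupling proteins and the transcription and lipid genes that work with Prdm16 in brown fat were followed here in mice with a disrupted Per3 gene, in which Prdm16 is strongly reduced. The 10 genes, Ucp1, Ucp2, Ucp3, Ppargc1a, Ppara, Pparg, Cebpb, Cidea, Elovl3 and Fabp4, were chosen by name, and every probe that carries 1 of these names in the hypothalamus array files was taken. This gave 16 probes of the 41174 on the array, and the same probes were read on the eye arrays. All mice were adult males on a C57Bl/6J background, either Per3 knockouts (Per3-/-, written KO in the figures), in which a neo cassette takes the place of part of the gene in all cells and Per3 RNA can still be made, or their wild-type (WT) littermates. Both genotypes lived through 17 cycles of 3.5 h of light and 3.5 h of darkness and were killed in the light of the last cycle, so there is no sample from another light schedule or time of day. RNA came from the whole eye of 7 WT and 7 Per3-/- mice and from a block of hypothalamus around the optic chiasm of 8 WT and 8 Per3-/- mice, and each mouse gave 1 array for each tissue used.

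Brown adipocytes make heat by letting protons back into the mitochondrion without making ATP, a leak carried by Ucp1. Prdm16 binds C/EBP-beta, the product of Cebpb, and PPAR-gamma, the product of Pparg, and turns on the genes of brown fat, while the coactivator Ppargc1a raises mitochondrial content and the transcription of Ucp1. Cidea and Elovl3 are classical brown-fat genes that are also active in other lipid-storing or lipid-secreting cells, and Fabp4 is a fatty-acid carrier shared by white and brown adipocytes.

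The signals are fluorescence intensities of probes of 60 bases. The sequences of 4 of them are shown because they are what was read for the defining gene of heat production, for the gene with the widest difference between the tissues, at 2 places of its transcript, and for the Prdm16 partner C/EBP-beta. They are written 5′ to 3′ in lower case, with no part marked, and the positions come from the array files and refer to mm9. The Ucp1 probe lies at chr8:85821788-85821847 on the plus strand and the Cebpb probe A_52_P605846 at chr2:167515309-167515368 on the plus strand. The Fabp4 probe A_52_P564544 lies at chr3:10208442-10208501 on the minus strand, upstream of the Fabp4 probe A_51_P336830 at chr3:10204533-10205262, whose 60 bases cover 730 bases of the genome and so cross a splice junction. Exon and UTR annotation of this assembly was not used here.
Ucp1 A_51_P426353: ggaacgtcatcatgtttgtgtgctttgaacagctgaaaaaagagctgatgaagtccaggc
Fabp4 A_52_P564544: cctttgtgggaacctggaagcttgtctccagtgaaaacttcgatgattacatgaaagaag
Fabp4 A_51_P336830: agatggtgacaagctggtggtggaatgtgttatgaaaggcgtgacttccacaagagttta
Cebpb A_52_P605846: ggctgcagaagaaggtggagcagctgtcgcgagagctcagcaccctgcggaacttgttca
Because a probe's brightness also depends on its own sequence, levels are compared below for 1 probe at a time across arrays and never between probes.

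All values are log2 signals relative to the 75th percentile of the array, so 0 is that percentile and 1 unit is a doubling. The scanner software counted 67.9% to 80.7% of all probes on an array as well above background. Cryaa, a crystallin gene of the lens, was well above background on all 30 arrays, at 8.70 ± 0.15 (SD, n = 7) in WT eyes and -4.47 ± 0.18 (SD, n = 8) in WT hypothalami. Pmch, a neuropeptide gene of the lateral hypothalamus, was well above background on all 16 hypothalamus arrays and no eye array. The probe of Per3 was lower in Per3-/- mice by 0.51 (SE 0.09, limma adjusted p = 0.067) in the hypothalamus and by 0.45 (SE 0.23, limma adjusted p = 1) in the eye, and it stayed well above background in both genotypes. Whether this probe lies in the deleted part of the gene was not tested. Prdm16 fell in every Per3-/- mouse, with a log2 difference of -2.86 (SE 0.13, limma adjusted p = 9.25e-09) in the hypothalamus and -4.14 (SE 0.12, limma adjusted p = 2.63e-10) for eyes. Per3 and Prdm16 give the context and are not counted among the 10.

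Unlike Prdm16, none of its thermogenic partners was called as changed with genotype. In the hypothalamus 0 of the 16 probes passed an adjusted p of 0.05 in limma, where 17 of all 41174 probes passed (0.0413%), and 1 of the 16, Ucp1, which no hypothalamus array measured above background, had an unadjusted p under 0.05 (2.82% of all probes). In the eye 0 of 16 passed, where 8 of all probes passed (0.0194%), and 0 had an unadjusted p under 0.05 (1.8% of all probes). With same-numbered mice as blocks, 1 probe of all was called in the eye and still 0 of the 16. The groups of mice overlapped for all 16 probes in both tissues, with no share of all probes to set beside this. The median difference of the 16 probes was 0.03 for the hypothalamus arrays, beside -0.01 over all probes, and 0.07 for the eye arrays, beside 0.00. The 95% interval of the difference excluded a change of 2-fold in either direction for 11 of the 16 hypothalamic and 10 of the 16 eye comparisons, and a change of 1.5-fold for 9 and 8 of them. Among these 11, Ucp2 A_52_P499675, was at background on all 16 hypothalamus arrays, so its interval sets no limit on the gene. The remaining probes, those of Fabp4, Elovl3 and Ucp1 in both tissues and Cidea in the eye, allowed a change of 2-fold.

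**Figure D1:**
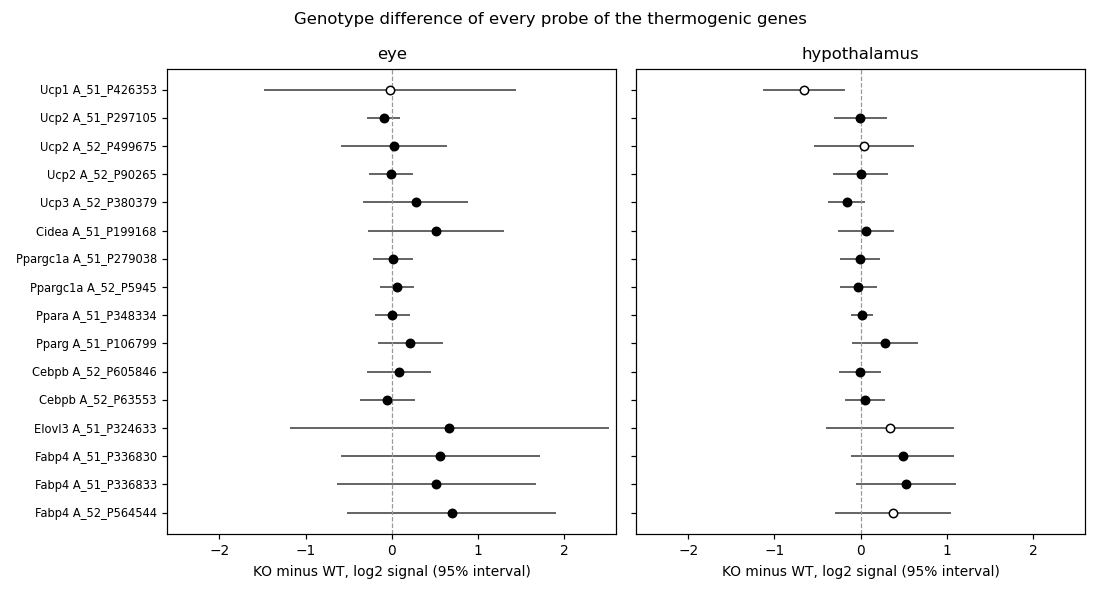
Difference between Per3-/- (KO) and WT mice for each of the 16 probes in the eye (left, 7 against 7) and the hypothalamus (right, 8 against 8), in log2 signal, with 95% intervals from limma. Filled circles mark probes well above background throughout 1 genotype or both, and open circles the others. All intervals include 0 except that of Ucp1 in the hypothalamus, where no array was above background, and the widest is that of Elovl3 in the eye.

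Ucp1, the proton channel itself, was not measurable in the hypothalamus. Its signal was well above background on 0 of 16 arrays, with a lowest, median and highest value of -7.68, -7.18 and -6.29 in WT and -8.34, -7.81 and -7.22 in Per3-/- mice. The 2 genotypes overlapped, although 5 of 8 Per3-/- mice lay below every WT mouse (unadjusted limma p = 0.0086, adjusted p = 0.99, two-sided exact permutation p = 0.013), and this compares background signals, so no fold is given. The authors counted Ucp1 among the genes that differ in the hypothalamus by a rank products analysis, which was not run here. In the eye Ucp1 was well above background in 3 of 7 WT and 3 of 7 Per3-/- mice. The values ran from -6.94 through a median of -6.40 to -2.85 in WT and from -6.85 through -6.24 to -3.07 in Per3-/- mice. The signal therefore lay near background in most eyes of both genotypes and stood far higher in WT mouse 3 (-2.85) and Per3-/- mouse 3 (-3.07), whose eye arrays lay on the same slide as 2 others without such a signal (-6.59 and -6.94). The means of -5.74 ± 1.42 and -5.76 ± 1.28 (SD, n = 7 each) gave a log2 difference of -0.02 (SE 0.68, limma adjusted p = 1, interval -1.47 to 1.43).

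Ucp2, a widely expressed relative of Ucp1 in neurons, immune cells and retina, was measured by 3 probes. The probe A_51_P297105 lay between -0.21 and 0.09 (median -0.18) in WT and between -0.37 and 0.14 (median -0.25) in Per3-/- eyes. Here 6 of 7 Per3-/- eyes lay below every WT eye while Per3-/- mouse 4 lay above all of them, and the difference of -0.10 (SE 0.08, limma adjusted p = 1) had an interval from -0.27 to 0.08. In the hypothalamus the same probe lay between -0.34 and -0.07 (median -0.24) in WT and between -0.67 and 0.68 (median -0.32) in Per3-/- mice, with a difference of -0.01 (SE 0.14). The spread of the Per3-/- group came from mouse 1, which held the highest value of all 16. The probe A_52_P90265 followed it over the arrays (r = 0.80 over 14 eyes and 0.97 over 16 hypothalami), with differences of -0.01 and 0.00. The probe A_52_P499675 stayed at background level in all 16 hypothalami and did not follow the first in the eye (r = 0.03).

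Ucp3, the uncoupling protein of skeletal muscle, was well above background on all 30 arrays. It lay between -4.04 and -2.85 (median -3.41) in WT and between -4.07 and -2.52 (median -2.79) in Per3-/- eyes, so 4 of 7 Per3-/- eyes were above every WT eye and the others within or below the WT range. The difference was 0.28 (SE 0.28, limma adjusted p = 1). In the hypothalamus the ranges were -3.82 to -3.31 (median -3.61) in WT and -4.11 to -3.55 (median -3.64) in Per3-/- mice, and the difference was -0.16 (SE 0.09, limma adjusted p = 0.99).

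Among the transcription factors and their coactivator, the 95% intervals were narrow for Ppargc1a and Ppara, and for Cebpb in the hypothalamus. In the eye those of Cebpb ran from -0.36 to 0.26 (A_52_P63553) and from -0.27 to 0.44 (A_52_P605846), about as wide as that of Pparg (-0.15 to 0.58). Ppargc1a, the coactivator of mitochondrial biogenesis, had a hypothalamic signal of 1.77 to 2.29 (median 1.99) in WT and 1.52 to 2.38 (median 1.95) in Per3-/- mice, and an eye signal of 1.22 to 1.79 (median 1.62) and 1.32 to 1.82 (median 1.65). The differences of 0.00 (SE 0.10) and 0.02 (SE 0.10) had intervals that allow at most a fold of 1.16 up or 0.86 down in the hypothalamus and 1.18 or 0.87 in the eye. Its second probe, A_52_P5945, differed by -0.03 (SE 0.09) and 0.06 (SE 0.09), and it followed the first over the hypothalamus arrays (r = 0.87) but not over the eyes (r = 0.00).

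Ppara, the nuclear receptor that drives fatty-acid oxidation, is printed 10 times on each array and had the smallest standard error of the 16 probes in the hypothalamus. Its signal lay between -1.86 and -1.66 (median -1.76) in WT and -1.97 and -1.60 (median -1.71) in Per3-/- hypothalami, a difference of 0.02 (SE 0.05, interval -0.10 to 0.13). In the eye it lay between -1.37 and -0.86 (median -1.16) and between -1.29 and -0.89 (median -1.15), a difference of 0.00 (SE 0.09).

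Pparg, the nuclear receptor required for all adipocytes and also printed 10 times, lay between -0.85 and 0.08 (median -0.59) in WT and between -0.62 and 0.16 (median -0.33) in Per3-/- eyes, a difference of 0.21 (SE 0.17, limma adjusted p = 1). In the hypothalamus it lay between -2.78 and -2.23 (median -2.44) in WT and between -2.52 and -1.09 (median -2.41) in Per3-/- mice, a difference of 0.28 (SE 0.18, limma adjusted p = 0.99). The high end was Per3-/- mouse 7, and without this mouse the difference was 0.12. For Cebpb, which encodes C/EBP-beta, the probe A_52_P63553 differed by 0.05 (SE 0.10) in the hypothalamus and by -0.05 (SE 0.14) in the eye, and A_52_P605846 by 0.00 (SE 0.11) and 0.09 (SE 0.17). Ppargc1a, Pparg and Cebpb, whose products bind Prdm16, were measured well above background on all 30 arrays.

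Cidea, a lipid-droplet protein of brown fat, lay between 0.32 and 2.87 (median 1.99) in WT and between 1.78 and 3.23 (median 2.44) in Per3-/- eyes, a difference of 0.51 (SE 0.36, limma adjusted p = 1), which was 0.25 without WT mouse 4. In the hypothalamus, where it was well above background on all 16 arrays, it lay between 1.42 and 1.92 (median 1.71) in WT and between 1.304 and 2.56 (median 1.69) in Per3-/- mice, a difference of 0.06 (SE 0.15). Elovl3, an elongase of very long fatty acids, ranged from -4.65 through a median of -1.13 to 1.28 in WT and from -1.81 through -0.36 to 0.40 in Per3-/- eyes. Its highest eye was 60.9-fold above its lowest, and both of those were WT, so every Per3-/- eye lay inside the WT range. Only 1 of the 16 hypothalamus arrays, that of Per3-/- mouse 7, was well above background for Elovl3.

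Fabp4 lay between 2.89 and 5.59 (median 4.65, probe A_51_P336833) in WT and between 2.80 and 6.19 (median 5.15) in Per3-/- eyes, a difference of 0.52 (SE 0.53, limma adjusted p = 1). In the hypothalamus this probe lay between -5.63 and -5.13 (median -5.42) in WT and between -5.65 and -3.14 (median -4.94) in Per3-/- mice, with 5 of 8 Per3-/- mice above every WT mouse. The difference of 0.52 (SE 0.27) had an unadjusted limma p of 0.069, an adjusted p of 0.99 and a two-sided exact permutation p of 0.042. The probe A_51_P336830 gave 0.49 (SE 0.27) there, and 0.24 without Per3-/- mouse 1, whose value of -3.01 was the highest. On that array the mean of 9 fat cell markers, -1.18, lay within the range of the other 15 arrays (-1.33 to -0.99), and so did that of 7 endothelial markers (0.11 against -0.06 to 0.27), while the mean of 7 leukocyte and microglia markers, -0.480, was the highest (the others reached -0.484 at most). Their part in the Fabp4 signal was not tested.

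**Figure D2:**
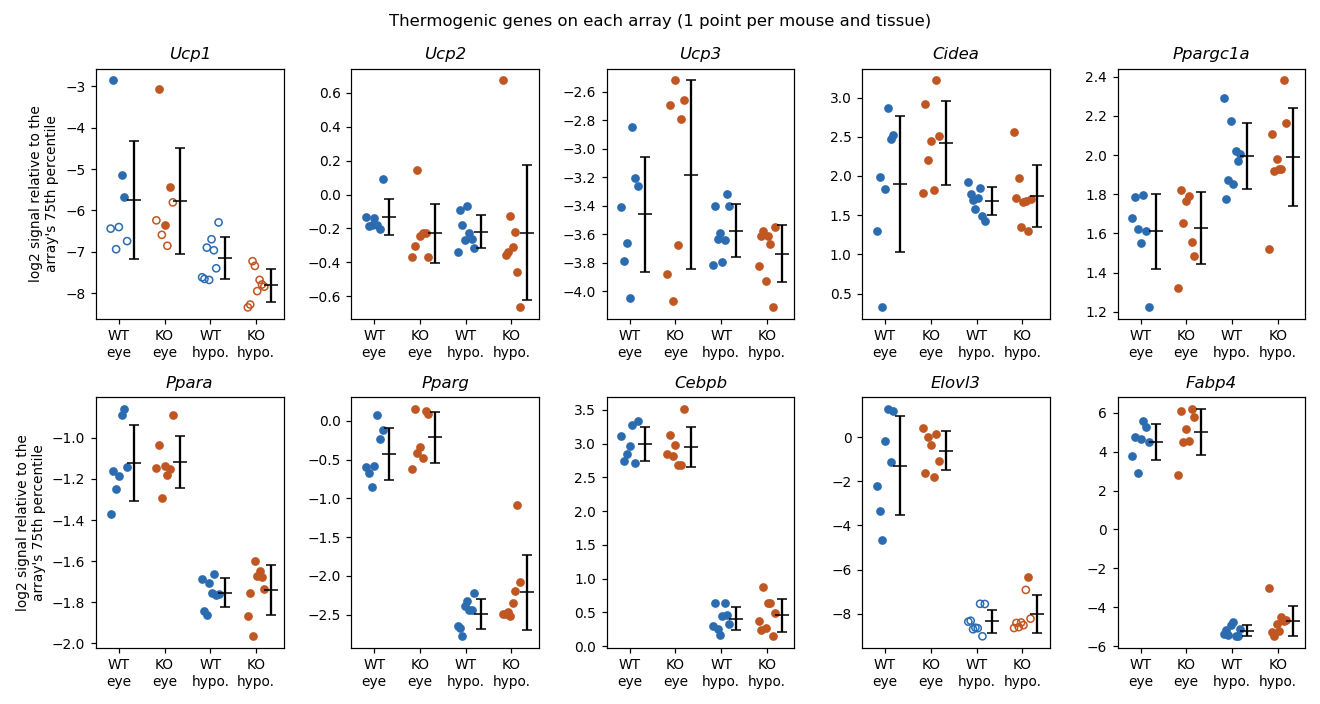
Log2 signal of each of the 10 genes on every array, relative to the array's 75th percentile, with 1 panel and axis per gene, 1 point per mouse, blue for WT and orange for Per3-/- (KO), and a bar with whiskers for mean ± SD. Open points were not well above background. WT and KO points overlap in each tissue for every gene. Elovl3, Pparg, Ppara and Cebpb lie higher in the eye, and Ucp1 is open on all 16 hypothalamus arrays. The Fabp4 panel shows A_51_P336833 for the eye and A_51_P336830 for the hypothalamus, so its levels are not comparable between the tissues.

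The genotype effect was also compared between the tissues in 1 model over all 30 arrays. For 0 of the 16 probes did it differ (limma adjusted p of 1 for each), where 2 of all 41174 probes passed (0.00486%), and 0 of the 16 had an unadjusted p under 0.05. The smallest unadjusted p of the 16 was that of Ucp3, whose genotype effect was higher in the eye by 0.44 (SE 0.28, interval -0.13 to 1.002).

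The tissues were also set against each other in WT mice. In WT mice 12 of 16 probes passed an adjusted p of 0.05 (75.6% of all probes did), 10 of them higher in the eye (42.1% of all probes) and 2 lower (33.6%), so the share called was no larger than that of all probes. The eye and hypothalamus arrays were scanned on different days, 1 day per tissue, so tissue and array run cannot be told apart. The fat carrier Fabp4 stood 945-fold (A_51_P336833) and 669-fold (A_51_P336830) higher in the WT eye than in the WT hypothalamus, and at least 35.8-fold higher by A_52_P564544, which was not well above background in any WT hypothalamus. These folds have limma adjusted p-values of 2.55e-19, 1.14e-18 and 6.68e-15. Elovl3 was at least 36.5-fold higher in the eye (limma adjusted p = 1.65e-11). These lower bounds set the mean of the eyes against the dimmest signal that counted as well above background on each hypothalamus array, or the probe's own signal where that was higher.

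Of the transcription factors, Cebpb was 6.04-fold (A_52_P63553) and 2.92-fold (A_52_P605846), Pparg 4.18-fold and Ppara 1.55-fold higher in the eye (limma adjusted p of 4.55e-18, 2.31e-11, 4.65e-12 and 1.50e-09). Ppargc1a was 1.31-fold higher in the hypothalamus (A_51_P279038, limma adjusted p = 0.0012), while its second probe did not pass (1.11-fold, adjusted p = 0.12). The probes of Ucp2 went apart, with A_52_P90265 2.69-fold higher in the hypothalamus (adjusted p = 5.17e-11), A_52_P499675 at least 2.27-fold higher in the eye (adjusted p = 2e-07) and A_51_P297105 not called (log2 difference 0.09, SE 0.12). Ucp3 (0.12, SE 0.19) and Cidea (0.22, SE 0.26) were not called. Ucp1 had a fitted adjusted p of 0.0091 and a bound of at least 1.62-fold higher in the eye, with only 3 of 7 WT eyes above background, and the call did not hold under quantile or normexp processing.

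The eyes differed widely in the signals of fat cell genes. A fat marker index was made as the mean log2 signal of 11 fat cell genes that were well above background in all 14 eyes (Adipoq, Plin1, Plin4, Cidec, Retn, Cfd, Lipe, Pnpla2, Thrsp, Gpd1 and Agpat2), none of them among the 10. It lay between -0.12 and 2.004 in WT and between -0.07 and 2.35 in Per3-/- eyes, a 5.54-fold range over all 14, with means of 1.08 ± 0.69 and 1.47 ± 0.86 (SD, n = 7 each, two-sided exact permutation p = 0.37). An index of 10 skeletal muscle genes moved with it (r = 0.82 over 14 eyes), as did one of 7 endothelial genes (r = 0.74). With 16 probes and 5 marker indices, 80 relations were computed, each adjusted over all probes in limma. In such bulk samples more cells of a type and more RNA per cell cannot be told apart.

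Of the 16 probes 5 rose with the fat marker index at an adjusted p of 0.05 over all probes (limma, with genotype as a covariate), where 50 of all 41174 probes rose (0.121%), the index genes included. The 5 belong to Fabp4, Cidea and Pparg. Fabp4 followed the index almost point for point. Its 3 probes rose by 1.34 (SE 0.06), 1.34 (SE 0.07) and 1.38 (SE 0.12) log2 units per unit of the index (limma adjusted p = 2.48e-07, 7.28e-07 and 6.89e-05), and for A_51_P336833 Pearson's r was 0.99 and Spearman's coefficient 0.92 over the 14 eyes (permutation p = 1e-05, the smallest that 100000 permutations can give, and 2e-05). Without the 2 eyes farthest from the median of the index (WT mouse 4 and Per3-/- mouse 2) r was 0.98, and it was 0.98 within WT eyes, 0.997 within Per3-/- eyes and 0.99 with slide means removed.

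Cidea rose by 0.82 (SE 0.12) per unit of the index (limma adjusted p = 0.019), with r = 0.89 and Spearman's coefficient = 0.96 (permutation p = 3e-05 and 2e-05), r = 0.925 without those 2 eyes, 0.97 within WT and 0.90 within Per3-/- eyes, and 0.86 with slide means removed. Pparg rose by 0.39 (SE 0.06, limma adjusted p = 0.018), with r = 0.91 and Spearman's coefficient = 0.94 (permutation p = 2e-05 and 1e-05), r = 0.93 without them, 0.88 and 0.94 within the genotypes, and 0.89 with slide means removed. These 2 calls were less firm than that of Fabp4, since leaving out any of 4 eyes each, or fitting slides, took the adjusted p above 0.05 (0.42 for Cidea and 0.41 for Pparg with slides, where the slopes were 0.85 and 0.39). For Cidea the eyes were WT mice 4, 6 and 7 and Per3-/- mouse 7, for Pparg WT mice 4 and 6 and Per3-/- mice 3 and 8, and the adjusted p then reached at most 0.10. With the index held constant the genotype difference of Fabp4 in the eye was -0.0032 in place of 0.52 (SE 0.53). Because Fabp4 ran almost as the index itself (r = 0.99), this fit cannot show where that difference came from. Its cause was not tested.

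**Figure D3:**
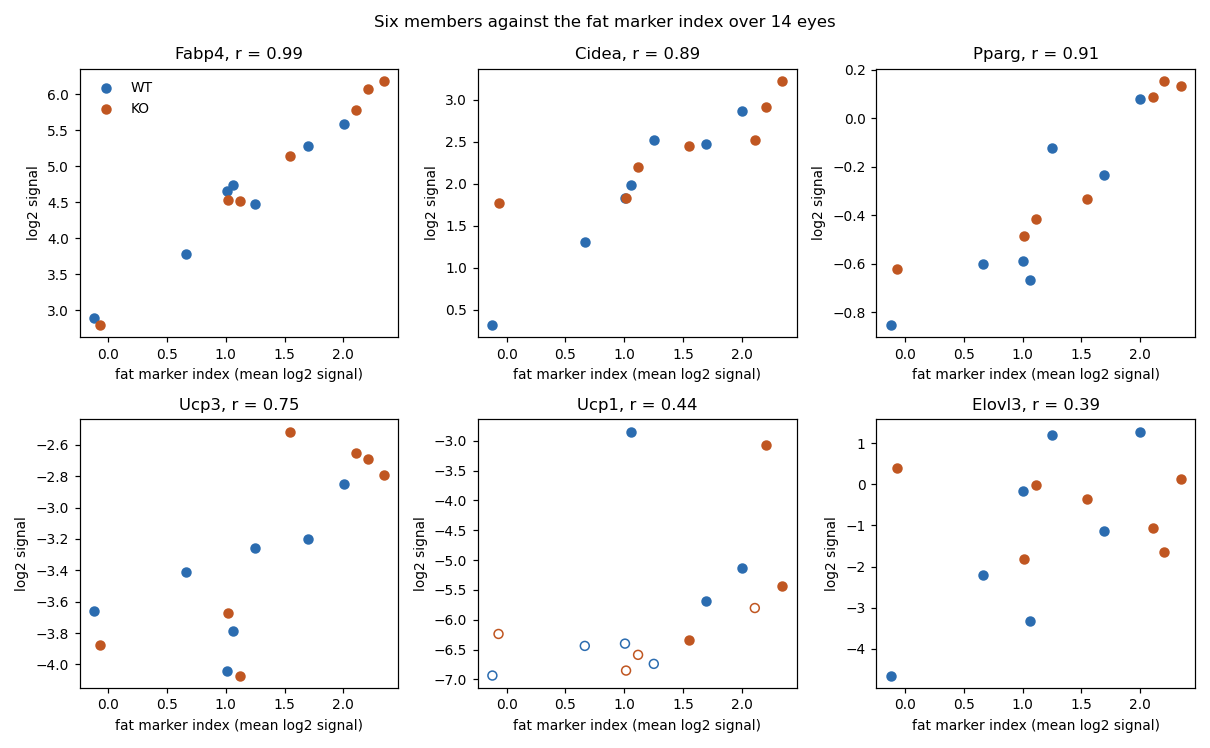
Log2 signal of 6 genes (vertical axes) against the fat marker index (horizontal axes, mean log2 signal of 11 fat cell genes) in 14 eyes, blue for WT and orange for Per3-/- (KO), with open points not well above background and Pearson's r above each panel. Fabp4, Cidea and Pparg rise with the index in both genotypes (r of 0.99, 0.89 and 0.91), while the high Ucp1 values sit at 2 different index levels and Elovl3 scatters.

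The uncoupling proteins did not pass. Ucp3 had a slope of 0.51 (SE 0.14, unadjusted limma p = 0.0028, adjusted p = 0.32) and r = 0.75. Ucp1, above background in 6 of the 14 eyes, had a slope of 0.80 (SE 0.43, limma adjusted p = 0.56, r = 0.44 and Spearman's coefficient 0.62 with permutation p = 0.11 and 0.022, r = 0.69 with slide means removed). The slopes of Ucp2 were -0.01 (SE 0.06, A_51_P297105), 0.05 (SE 0.08, A_52_P90265) and 0.38 (SE 0.17, A_52_P499675). The last had an unadjusted limma p of 0.047 and an adjusted p of 0.53. Its r was 0.52, and -0.32 with slide means removed. The eyes with the highest Ucp1 signals had index values of 1.06 (WT mouse 3) and 2.21 (Per3-/- mouse 3), and Per3-/- mouse 7, with the highest index of 2.35, had a Ucp1 signal of -5.44. Ppara had a slope of 0.13 (SE 0.05, adjusted p = 0.50), Ppargc1a 0.06 (SE 0.07, A_51_P279038) and 0.15 (SE 0.04, A_52_P5945, adjusted p = 0.38), and Cebpb 0.12 (SE 0.10) and 0.17 (SE 0.11). Elovl3 had a slope of 0.77 (SE 0.57, adjusted p = 0.66; 0.17 without WT mouse 4 and 1.65 without Per3-/- mouse 2), with r of 0.78 within WT and -0.35 within Per3-/- eyes. Prdm16 did not pass either, with a slope of -0.13 (SE 0.08, adjusted p = 0.57).

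Elovl3, besides brown fat, is known from the sebaceous glands of skin, and the same fit was run on an index of gland genes. This index was the mean of 4 of 6 listed genes, Awat2, Krt79, Scd3 and Soat1, that were well above background in all 14 eyes. Elovl3 was the 1 probe of the 16 that rose with it (60 of all probes did, 0.146%). Its slope was 3.54 (SE 0.32, limma adjusted p = 0.00013), with r = 0.95 and Spearman's coefficient = 0.94 over 14 eyes (permutation p = 1e-05 each, the smallest possible). Without WT mice 3 and 6, the eyes farthest from the median, r was 0.93, and it was 0.96 within WT, 0.89 within Per3-/- eyes and 0.93 with slide means removed. The call held when any single eye was left out (slope 3.15 to 3.69) and with the fat marker index in the same fit. This index was added after the data were seen. Under normexp a very large part of all probes passed on it, so that run does not single out Elovl3. The index rested on 2 of its genes, since Elovl3 correlated with the desaturase gene Scd3 (r = 0.95) and the keratin gene Krt79 (r = 0.92) but not with Soat1 (r = 0.05) or Awat2 (r = -0.30), an enzyme gene of wax ester synthesis. WT mice 6 and 8, with the highest index values (-1.79 and -1.86), had the highest Elovl3 signals (1.28 and 1.19), and WT mice 3 and 4, with the lowest (-3.26 and -3.22), had the lowest (-3.33 and -4.65). Cidea did not pass on this index (slope 0.97, adjusted p = 0.40).

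On the muscle marker index 2 of 16 probes passed, where 486 of all probes rose (1.18%). An unadjusted limma p under 0.05 was found for 11 of the 16 (13.6% of all probes, either sign). These included Cidea (r = 0.69, limma adjusted p = 0.15) and Fabp4 (r = 0.76 by A_51_P336833, limma adjusted p = 0.071). The same count was 9 on the fat marker index (9.31% of all probes) and 4 on the gland index (12.4%). Ucp3, whose usual site is muscle, rose by 0.98 (SE 0.22, limma adjusted p = 0.048, r = 0.79, Spearman's coefficient = 0.78, permutation p = 0.0013 and 0.0016, r = 0.81 without WT mice 3 and 4 and 0.73 with slide means removed), and Pparg by 0.64 (SE 0.12, limma adjusted p = 0.017, r = 0.84, Spearman's coefficient = 0.83, permutation p = 0.00025 and 0.00043, r = 0.75 without them and 0.80 with slide means removed). Neither passed with slides or with the fat marker index in the fit, and leaving out any of 12 eyes took Ucp3 above 0.05. On the index of 7 endothelial genes 0 of 16 passed (9 of all probes rose, 0.0219%), with 5 of the 16 at an unadjusted p under 0.05 (14.1% of all probes, either sign), and on that of 7 leukocyte and microglia genes 0 of 16 passed (0% of all probes), with 4 at an unadjusted p under 0.05 (3.84% of all probes, either sign). The leukocyte index averaged 0.07 ± 0.08 in Per3-/- and -0.08 ± 0.14 in WT eyes (SD, n = 7 each, two-sided exact permutation p = 0.035). This p was not adjusted for the 5 indices. The others gave a two-sided exact permutation p = 0.37 (fat), 0.74 (muscle), 0.81 (gland) and 0.50 (endothelial). Of the 7 leukocyte and microglia genes, 0 were called as changed with genotype in the eye by limma (0.0194% of all probes were). An unadjusted limma p under 0.05 was found for 2 of the 7 (1.8% of all probes). All 7 were higher in Per3-/- eyes, by 0.02 to 0.28 (median 0.14).

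**Figure D4:**
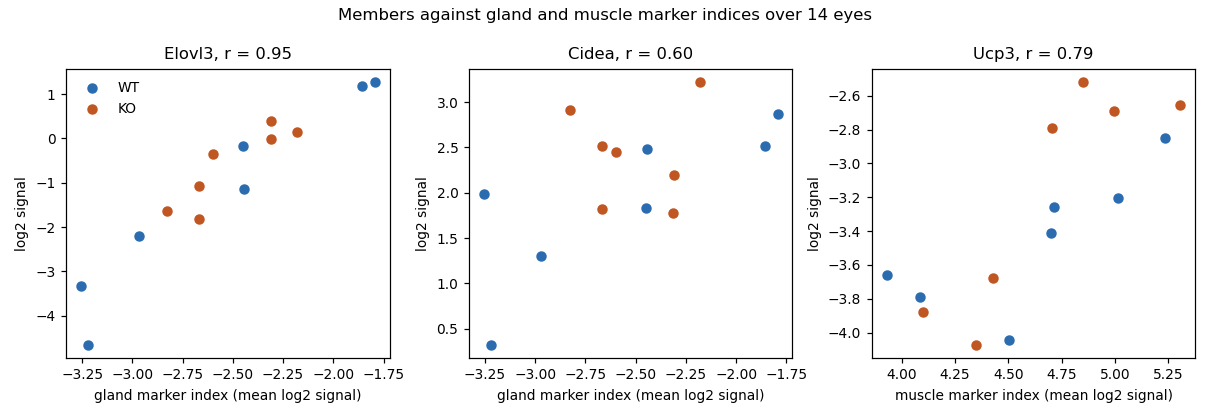
Log2 signal of Elovl3 and Cidea against the gland marker index (mean of Awat2, Krt79, Scd3 and Soat1) and of Ucp3 against the muscle marker index (mean of 10 genes) in 14 eyes, blue for WT and orange for Per3-/- (KO). Elovl3 rises with the gland index in both genotypes (r = 0.95), more closely than with the fat marker index (r = 0.39).

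The genes whose signals ran most like each member over the 14 eyes were named among 27883 probes well above background in all of them, as a description. For Fabp4 these were Adipoq (r = 0.99), an unnamed transcript (0.99), Cidec (0.99), Plin1 (0.99) and Cfd (0.99), all but the unnamed one fat cell genes of the index. For Pparg they were Pnpla2, Gpd1, Retn, Cebpa and Dgat2 (r of 0.94 to 0.93), with the lipase gene Pnpla2, the triglyceride synthesis gene Dgat2, the hormone gene Retn and the transcription factor gene Cebpa among them. For Cidea they were Acp5, AU018778, Mrap, Cebpa and Hp (0.95 to 0.91), with Mrap an accessory protein of melanocortin receptors. For Ucp3 they were G0s2, Abhd5, Pdk4, 2310014F07Rik and Tbx18 (0.92 to 0.88), where G0s2 and Abhd5 encode the inhibitor and the activator of the fat lipase ATGL. For Elovl3 they were BC048679, Sptlc3, Elovl5, Cyp2b9 and Aqp8 (0.99 to 0.98), which include another elongase and a subunit of the enzyme that starts sphingolipid synthesis. For Ppara they were Cma2, Cma1, Bdh1, Mcpt4 and Dennd4b (0.91 to 0.90), with 3 mast cell protease genes among them. For Ucp2 they were Ptprf, Ephx1, Irak4, Nqo1 and Sox11 (0.92 to 0.82), for Ppargc1a Bzw1, Cdh8, Sp4, A2bp1 and an unnamed transcript (0.93 to 0.86), and for Cebpb 4933403F05Rik, Gpc1, Pnpla8, AW122171 and Tmeff2 (0.91 to 0.88). The arrays share slides and depth, and Ucp1 was not ranked because it was above background in too few eyes.

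Of 18 co-regulators and upstream regulators of Prdm16, among them the corepressor genes Ctbp1 and Ctbp2 and the methyltransferase gene Ehmt1, only Prdm16 itself passed in either tissue. Of all probes 0.0413% passed in the hypothalamus and 0.0194% in the eye, so the lack of other calls says little about these genes. The medians of the list were 0.02 in the hypothalamus and -0.03 in the eye. Of 34 listed genes of brown and beige fat identity and heat production, 33 were on the array and 0 passed in either tissue, beside the same shares of all probes. An unadjusted limma p under 0.05 was found for 2 genes in hypothalami (2.82% of all probes) and 0 in eyes (1.8% of all probes). The largest differences among those measured were in the hypothalamus Cox8b (0.38, SE 0.65), Dio2 (0.26, SE 0.10), Lhx8 (-0.23, SE 0.47) and Tmem26 (-0.15, SE 0.09), and in the eye Slc27a2 (0.51, SE 0.57), Plin5 (0.37, SE 0.31), Gatm (-0.34, SE 0.40) and Zic1 (-0.22, SE 0.12). Dio2, the deiodinase that activates thyroid hormone, lay at 1.35 ± 0.21 in WT and 1.61 ± 0.21 in Per3-/- hypothalami (SD, n = 8 each, limma adjusted p = 0.99). Of these 33 genes 1 rose with the fat marker index in the eye (0.121% of all probes did). This was Otop1, a proton channel gene of brown fat (slope 1.01, limma adjusted p = 0.030), well above background in 5 of 14 eyes. Plin5, a lipid-droplet protein of oxidative tissue, did not pass (r = 0.87, limma adjusted p = 0.053).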

How the data were processed

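The authors labelled RNA with 1 dye (Cy3) and hybridised it to Agilent 60-mer arrays. Per the file headers, Feature Extraction 10.7.1.1 gave each spot a background-subtracted processed intensity on a linear scale, which the authors deposited with marks for spots well above background, uneven or outlying. The deposited table of log2 values, scaled by the authors to the array's 75th percentile and centred per probe, served as an alternative. Each array's log2 processed intensity was centred on its own 75th percentile, without spots marked uneven or outlying (at most 91 per array), and spots of a probe were averaged. Gene names and positions (mm9) come from the hypothalamus array files, whose probes were matched to the eye files by probe name. The members and lists were chosen with earlier results of these data known.

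Genotypes, tissues and slopes were fitted with limma 3.58.1 in R 4.3.3 and adjusted by Benjamini-Hochberg over 41174 probes at 0.05. Over both tissues the mouse was a random block (correlation 0.059). For this an eye and a hypothalamus of the same genotype and number were taken as 1 mouse, which the labels do not state. Two-sided exact permutation tests and correlations used Python 3.11.15 and scipy 1.17.1, with 100000 permutations per correlation. The reported probe of a gene is its brightest in the tissue. Named are all members, and of other lists the genes called, otherwise up to 4 with the largest differences above background. Most alike are the 5 genes of highest r. The fits were tested on simulated data.

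Both genotypes lay on each of 4 slides per tissue. Same-numbered mice of the 2 genotypes share a slide in both tissues, so a shared number cannot be told apart from a shared slide. They deviated together in the eye (correlations of 0.11 to 0.63 over 6 pairs) but not all in the hypothalamus (-0.03 to 0.32 over 8 pairs). The labels do not say what the numbers mean, and blocks by number served only as an alternative. Signal over background and the number of arrays limit the precision. Each sample is 1 mouse, so p-values measure the spread between these mice. Alternatives were quantile and normexp (offset 50) processing, a filter on dim probes, slide and replicate blocks, the methods' t-test, marked spots kept, the authors' value table, other indices and leaving out each array. The gland, muscle, leukocyte and endothelial indices, and the fits with 2 indices, were added after the data were seen.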

Additional observations from a re-analysis of the deposited data

Results flagged for a closer look

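In 64 groups of 1 probe and 1 set of mice, 12 held a mouse whose gap to its nearest neighbour was too large a share of the group's range by Dixon's test, which chance alone gives in about 1 group in 20. Of the 12, 5 concern Per3-/- hypothalamus mouse 1, which was the highest of its group for Ucp2 (0.68 by A_51_P297105 and -0.25 by A_52_P90265) and for Fabp4 (-3.01 by A_51_P336830, -3.14 by A_51_P336833 and -5.82 by A_52_P564544, the last the 1 array of its group above background). Per3-/- hypothalamus mouse 7 was the highest for Pparg (-1.09), and WT hypothalamus mouse 2 for Cebpb (-2.86, A_52_P605846).

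In the eye, Per3-/- mouse 3 was the highest for Ucp1 (-3.07, next -5.44), Per3-/- mouse 4 (0.14) and WT mouse 8 (0.095) for Ucp2 by A_51_P297105, and Per3-/- mouse 8 for Cebpb by A_52_P605846 (-0.96). WT mouse 8 was the lowest for Ppargc1a (1.22, A_51_P279038). For 0 of the 16 probes was the genotype effect called as different between the tissues.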

How the results depend on the processing

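For the genotype comparison, 0 of the 16 probes was called in either tissue under any alternative run, leaving out each array included. Rank products, which the authors also used, was not among these runs. For the difference between tissues 0 was called under quantile scaling and normexp. The replicate block also gave 0 of 16 for the hypothalamus and 0 of 16 for the eye, and took the calls among all probes from 17 to 5 and from 8 to 1. Of all probes normexp called 10 for the hypothalamus and 4 for the eye, where the median of all probes became 0.18, and the difference between tissues went from 2 to 1 under quantile scaling and 0 under normexp. Quantile scaling moved the median eye-hypothalamus difference of all probes from 0.16 to -0.072.

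Signs turned for uncalled differences. Under quantile scaling these were Ppargc1a in the hypothalamus (0.00073), Ucp1 (0.062) and Ppara (-0.0076) in the eye and Ucp3 between tissues (-0.39). Under normexp they were Ppargc1a (0.00082), Ppara (-0.011) and Elovl3 (-0.11) in the hypothalamus, Ucp1 (0.30) and Ppargc1a (-0.051) in the eye, the difference of the genotype effect for Ppargc1a (-0.055), Ppara (0.052) and Pparg (0.0053), and the fat slope of Ucp2 (0.011). Ppara in the eye gave -0.033 with the replicate block, and the fat marker index as a covariate gave Ppargc1a -0.0065, Ppara -0.047 and Fabp4 -0.0032. Leaving out arrays gave in the hypothalamus -0.13 to 0.057 for Ucp2, -0.055 to 0.13 for Cidea, -0.061 to 0.063 for Ppargc1a, -0.0047 to 0.048 for Ppara and -0.0086 to 0.095 for Cebpb, and in the eye -0.47 to 0.46 for Ucp1, -0.047 to 0.068 for Ppargc1a, -0.038 to 0.047 for Ppara and -0.145 to 0.0052 for Cebpb. The fat slope then ranged from -0.066 to 0.015 for Ucp2 and -0.021 to 0.083 for Ppargc1a. With Adipoq alone the Ucp2 slope was 0.00077, and with the muscle index in the fit those of Ucp2, Cebpb and Elovl3 were 0.061, -0.21 and -0.11.

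The 5 probes that rose with the fat marker index became 3 under normexp, with Adipoq alone, with slides and with the muscle index in the fit, and 3 to 5 when eyes were left out, with 3 without WT mouse 4 or WT mouse 6. Of all probes 51 had a called slope of either sign, which became 23 under normexp, 88 with all 14 fat markers, 25 with slides and 16 with the muscle index in the fit. The 2 probes on the muscle index became 1 under quantile scaling and 0 under normexp, with slides or with the fat marker index, and 0 to 4 when eyes were left out, with 0 without Per3-/- mouse 2 or WT mouse 6 and 4 without WT mouse 3 (of all probes, 500 became 214 under normexp, 232 with slides and 160 with the fat marker index). On the gland index 3 probes passed under normexp, where 21309 of all probes passed, and 1 whichever eye was left out. On the endothelial index 11 of all probes became 82 under quantile scaling, 1 with slides and 0 under normexp or with the fat marker index. The causes were not tested. Below background a signal sets no level, which limits Ucp1 in most samples and Elovl3 in the hypothalamus.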
